A study of Homo sapiens with 11 samples.

Results

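The data described here are the 48 h arm of an RNA interference experiment in MDA-MB-231, established from a human triple-negative breast adenocarcinoma. They comprise 6 of the 11 arrays of the series, 3 from cells given AllStars Neg. Control siRNA and 3 from cells given 1 siRNA against MASTL (Hs_MASTL_6), both delivered with the lipid reagent RNAiMAX and both collected after 48 h. The remaining 5 arrays, 3 control and 2 MASTL siRNA, were collected at 24 h. Arrays at 48 h carry replicate numbers 1, 3 and 4 in each group and were compared as 3 same-numbered pairs. Whether each replicate number stands for its own culture is not given in the labels. The p-values therefore describe the spread among arrays, which may be technical. All cells are of 1 line and the silenced group received 1 siRNA, so its effects through MASTL and through other transcripts cannot be told apart. In bulk RNA, fewer cells of a kind and less RNA per cell cannot be told apart either.

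MASTL encodes the Greatwall kinase. At entry into mitosis Greatwall phosphorylates ENSA and ARPP19, which then bind and inhibit the phosphatase PP2A when it carries a B55 regulatory subunit, so that the phosphorylations made by CDK1 persist. In breast cancer cells MASTL has also been studied for roles in contractility and attachment. The siRNA strand given in the labels is shown because every comparison here rests on it. MASTL lies on chromosome 10, and which strand acts as the guide is not stated in the labels.

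MASTL siRNA: acgccttattctagcaaatta

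The measurements were 1-colour Illumina bead array values, normalized by the authors and read here on a log2 scale. Of 47321 probes, those above a noise limit of 7.41 on at least 2 arrays were kept, and for every gene the probe with the highest mean over the 11 arrays was used. This left 22167 features, of which 14034 were named genes and 8133 were probes without 1 gene symbol. Epithelial markers were mostly present, with 5 of 6 above the limit on all 6 arrays and CDH1 above it on none, and VIM ranged from 13.8 to 14.2, as is known for this mesenchymal-like line. The leukocyte genes PTPRC and CD3E and the endothelial genes VWF and CDH5 were above the limit on 0 of the 6 arrays. Other markers of these cells were above it, CD14 (8.24 to 8.93) and PECAM1 (7.58 to 8.02) on 6 of 6 arrays, LYZ on 5, and MS4A1 and TEK on 4.

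MASTL RNA itself was lower in every silenced array. It read 8.41, 8.42 and 8.72 on the control arrays of pairs 1, 3 and 4 and 7.54, 7.53 and 7.67 on the MASTL siRNA arrays. The paired log2 change was -0.93 (SE 0.044, limma adjusted p = 0.00246), or 1.91-fold lower, and its other probe changed by -0.58. The silenced level lies close to the noise limit, where the scale is compressed, so the fold understates the loss.

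The silenced kinase's substrates did not pass the test. ENSA averaged 9.19 ± 0.032 (SD, n = 3) in controls and 9.08 ± 0.15 (n = 3) in MASTL siRNA arrays, with pair differences of -0.28, 0.05 and -0.08 (adjusted p = 0.443). ARPP19 averaged 9.80 ± 0.049 and 9.96 ± 0.21, with pair differences of -0.08, 0.41 and 0.14 (adjusted p = 0.427). Among 21 measured genes of the Greatwall and PP2A group 2 rose and 3 fell, MASTL included. PPP2R2A, the B55 alpha subunit, fell by 0.19 (SE 0.035, adjusted p = 0.0310), and PPP2R3C, a B'' subunit, fell by 0.40 (SE 0.066, adjusted p = 0.0256). The B56 subunits PPP2R5D (0.21, adjusted p = 0.0483) and PPP2R5A (0.15, adjusted p = 0.0484) rose. These 4 regulatory subunits did not keep their calls when 1 pair was left out. Without pair 3 none of them was called (PPP2R3C -0.43, PPP2R2A -0.19, PPP2R5D 0.24, PPP2R5A 0.18). Without pair 1 the calls of PPP2R5D (0.23) and PPP2R5A (0.16) ended, and without pair 4 those of PPP2R2A (-0.16), PPP2R5D (0.15) and PPP2R5A (0.12).

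Across the genome the paired comparison called 2710 of 22167 features at an adjusted p under 0.05, or 12.2%. Of these 1398 were higher (6.31%) and 1312 lower (5.92%) under MASTL siRNA. Among named genes 1147 rose and 1128 fell, 2275 of 14034 or 16.2% (8.17% higher, 8.04% lower). Most of the changes were small. The median called change was 0.24 on the log2 scale, or 1.18-fold, and 94.6% of called features changed by less than 1.5-fold. Rises of at least 1.5-fold numbered 35 and falls 110, and past 2-fold there were 5 and 13.

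These counts rest on the pairing of the arrays. Fitted without the replicate block, the same 6 arrays gave 161 features higher and 177 lower, and all 338 were among the 2710. The replicate numbers were used as pairs because same-numbered arrays deviated together from their group means, with correlations across features of 0.693, 0.549 and 0.772 for numbers 1, 3 and 4. Leaving out pair 3 moved the counts most, to 336 higher and 426 lower. They were 714 and 697 without pair 1 and 936 and 969 without pair 4. List counts given below for these fits are read against these totals, since calls fell over all features. With 3 pairs an exact sign-flip test of 1 gene cannot give a p below 0.25, so the calls depend on the spread that limma shares between features.

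**Figure D1:**
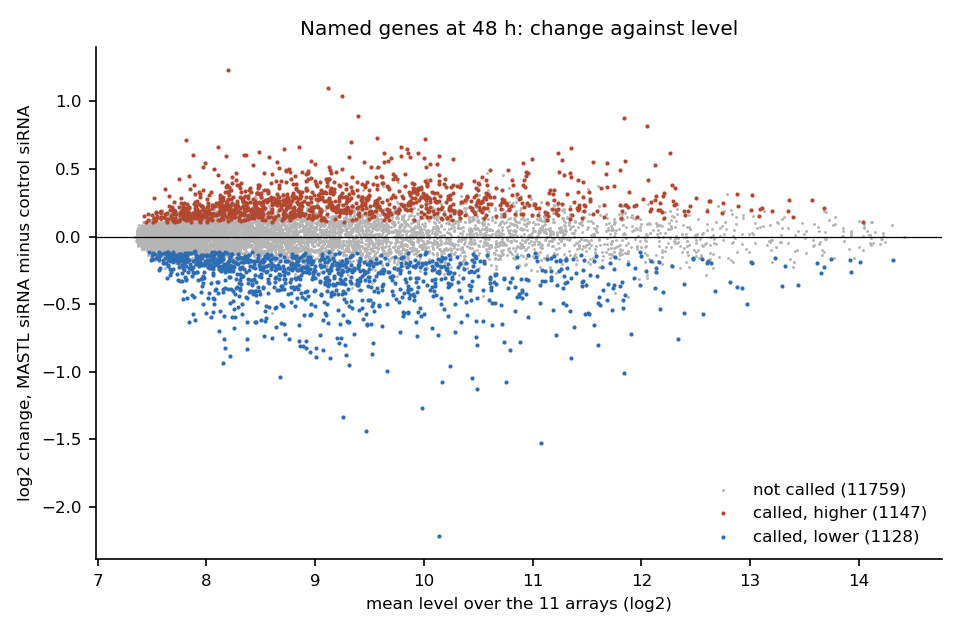
Each point is 1 of 14034 named genes, with the mean level over the 11 arrays (log2) on the x axis and the paired log2 change at 48 h on the y axis. Red marks the 1147 called higher, blue the 1128 called lower and grey the rest. The falls reach further than the rises, and calls thin out toward the noise limit at the left edge.

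Calls were more frequent among highly expressed genes. In the lowest tertile of named genes by mean level 0.556% were called, and in the highest tertile (mean level of at least 8.58) 31.0% were, 16.0% higher and 15.0% lower. Several of the gene lists below hold highly expressed genes, so their counts are read against these higher shares as well as against 8.17% and 8.04%. In a list of 11 measured reference genes, with a median level of 11.85, 3 rose and 0 fell (27.3%, median log2 change -0.06). The lists are described by their counts and medians, and no test of a list was made. Without the replicate block no list held more than 4 rises or 5 falls. The median log2 change of all named genes was 0.00.

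**Figure D2:**
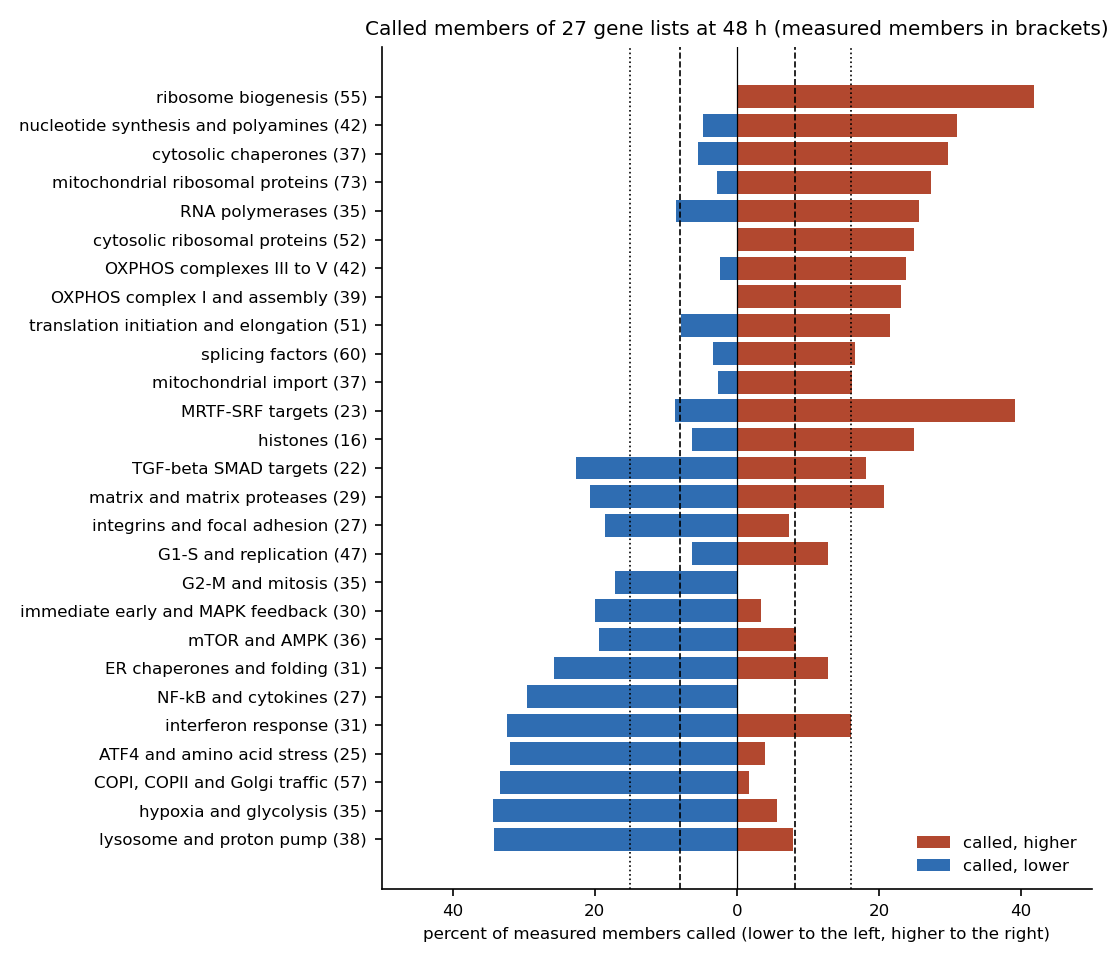
For each list shown, bars give the percent of its measured members that were called at 48 h, higher to the right in red and lower to the left in blue, with the number of measured members in brackets. Dashed lines mark the shares over all named genes (8.17% and 8.04%) and dotted lines those in the highest tertile by level (16.0% and 15.0%). Ribosome biogenesis stands at 41.8% higher with no falls, and the lysosome and the COPI, COPII and Golgi lists stand at 34.2% and 33.3% lower.

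Among genes that make ribosomes all called members rose. Of 55 measured nucleolar processing and assembly factors 23 rose and 0 fell, 41.8%, with a median log2 change of 0.14 and medians of 0.13, 0.14 and 0.17 in pairs 1, 3 and 4. FBL, fibrillarin, the methyltransferase of box C/D small nucleolar particles, read 10.87, 11.13 and 11.24 on the control arrays of pairs 1, 3 and 4 and 11.42, 11.59 and 11.65 on the MASTL siRNA arrays. All 3 silenced values lay above all 3 controls, and the change of 0.47 (SE 0.035) had an adjusted p of 0.00440. IMP4, a component of the U3 particle that processes the small subunit's RNA, went from 9.64, 9.82 and 9.77 to 10.07, 10.21 and 10.21 (0.42, SE 0.024, adjusted p = 0.00316). NHP2, a core protein of the box H/ACA particles, rose by 0.45 (SE 0.031, adjusted p = 0.00421), with groups that overlapped, since its control values spread from 10.33 to 10.93. HEATR1, needed for transcription and processing of ribosomal RNA, rose by 0.55 (SE 0.070, adjusted p = 0.0132). The list count was 11 rises without pair 1, 6 without pair 3 and 14 without pair 4, with 0 falls each time, and 1 rise without the block. The mitochondrial ribosomal list, with 73 measured members against 55 here, held 14 rises without pair 1 and 9 without pair 3. HEATR1 lost its call without pair 1 (0.50) or pair 3 (0.51).

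RNA polymerase subunits and nucleotide and polyamine enzymes had more rises than falls among their called members. Of 35 measured subunits and factors of RNA polymerases 9 rose and 3 fell (median 0.06). POLR2A, the catalytic subunit of RNA polymerase II, rose by 0.38 (SE 0.036, adjusted p = 0.00684), POLR2F, a subunit shared by all nuclear polymerases, by 0.40 (SE 0.026, adjusted p = 0.00393) and POLR1E, a subunit of RNA polymerase I, by 0.39 (SE 0.043, adjusted p = 0.00984). TAF1B, a subunit of the RNA polymerase I promoter factor, fell by 0.31 (SE 0.053, adjusted p = 0.0268). Among 42 measured genes of nucleotide and polyamine synthesis 13 rose and 2 fell (median 0.09). SRM, spermidine synthase, read 8.94, 9.20 and 9.11 in controls and 9.79, 9.75 and 9.89 in MASTL siRNA arrays of pairs 1, 3 and 4, a change of 0.73 (SE 0.061, adjusted p = 0.00560). CTPS2, which makes CTP, rose by 0.54 (SE 0.043, adjusted p = 0.00517), and APRT, which salvages adenine, by 0.37 (SE 0.025, adjusted p = 0.00421). TYMS, thymidylate synthase, went the other way and fell by 0.32 (SE 0.025, adjusted p = 0.00493). Without pair 3 the polymerase list held 5 rises and 0 falls and the nucleotide list 3 and 1, and the calls of POLR1E (0.39) and TAF1B (-0.26) ended. TAF1B was also lost without pair 1 (-0.29). Without pair 1 the nucleotide list held 7 rises and 1 fall.

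**Figure D3:**
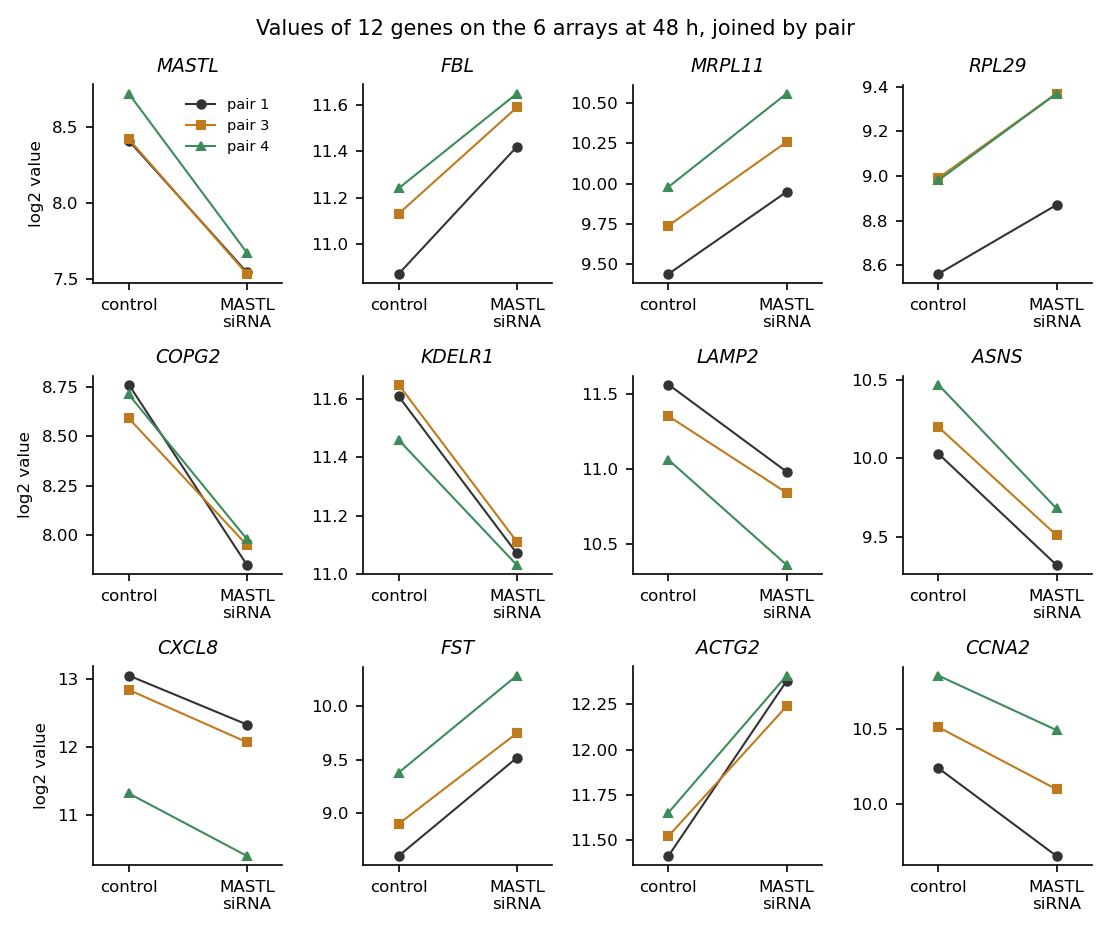
Log2 values of 12 genes on the 6 arrays at 48 h, control siRNA at the left and MASTL siRNA at the right of each panel, with a line and marker for each of pairs 1, 3 and 4 and a y axis of its own per gene. In every panel the 3 lines run the same way, while for CXCL8, CCNA2 and RPL29 the controls spread further between pairs than the mean change within a pair.

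Promoter sequence was looked at for the groups that moved together. RefSeq promoters (GRCh38.p14, 250 bases before to 50 after the annotated start) were matched by symbol for 11074 of the 14034 named genes. In 6 lists 15 short motifs were searched on both strands, where CCAAT and ATTGG among them are the same motif. The motifs given here were chosen after their shares had been seen. The E-box CACGTG, which can overlap the searched letters CCACG, was in 9.82% of these promoters (7.43% of all 27305 RefSeq promoters), in 20 of 47 of ribosome biogenesis genes (42.6%) and in 9 of 29 of lysosome genes (31.0%). In the other lists searched it was in 9.23% (mitochondrial ribosomal), 11.5% (COPI and COPII), 10.5% (MRTF-SRF) and 10.0% (ATF4). Within the ribosome biogenesis list 7 of 20 genes with it and 12 of 27 without it rose, with a median log2 change of 0.14 in both. Within the lysosome list 3 of 9 genes with it and 8 of 20 without it fell, with medians of -0.01 and -0.14. Over all called genes the share was 11.7% among rises and 10.6% among falls. The CArG box, which serum response factor binds, was in 1.13% of these promoters (1.29% of all) and in 6 of 19 of MRTF-SRF targets (31.6%), of which 4 rose and 1 fell. Of the 13 targets without it 2 rose and 1 fell. The letters TGATGNAA were in 2.00% (3.67% of all) and in 2 of 20 of the ATF4 list, where 1 of the 2 genes with them and 6 of the 18 without them fell. The promoters of 3 genes are shown with E-box, CArG or TGATGNAA matches in capitals, each as the 250 bases before the start read 5′ to 3′ along the gene's strand. They are IMP4 (plus strand, chr2:130342647-130342896), ACTG2 (plus strand, chr2:73892758-73893007) and ASNS (minus strand, chr7:97872409-97872658), for the rising nucleolar genes, the rising actin targets and the falling amino acid genes.
IMP4: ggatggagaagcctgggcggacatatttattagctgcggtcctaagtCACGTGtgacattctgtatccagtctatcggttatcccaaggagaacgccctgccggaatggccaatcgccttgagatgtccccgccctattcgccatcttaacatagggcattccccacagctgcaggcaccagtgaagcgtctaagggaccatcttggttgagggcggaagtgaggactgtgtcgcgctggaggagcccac
ACTG2: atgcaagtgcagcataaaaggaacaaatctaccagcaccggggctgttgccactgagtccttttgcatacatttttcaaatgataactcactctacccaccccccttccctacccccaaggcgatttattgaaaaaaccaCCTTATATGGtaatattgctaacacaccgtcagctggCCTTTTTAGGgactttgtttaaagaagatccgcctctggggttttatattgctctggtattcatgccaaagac
ASNS: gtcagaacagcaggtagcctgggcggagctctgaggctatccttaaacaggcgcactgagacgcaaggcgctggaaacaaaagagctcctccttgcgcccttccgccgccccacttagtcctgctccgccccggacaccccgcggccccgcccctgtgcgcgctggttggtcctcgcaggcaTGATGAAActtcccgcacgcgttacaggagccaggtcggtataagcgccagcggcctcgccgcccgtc

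Among components of the translation machinery most members did not pass the test, and rises outnumbered falls among those that did. Of 52 measured cytosolic ribosomal proteins 13 rose and 0 fell (median log2 change 0.05), at a median level of 13.1, far into the highest tertile. RPL29 read 8.56, 8.99 and 8.98 in controls and 8.87, 9.37 and 9.37 in MASTL siRNA arrays (0.36, SE 0.027, adjusted p = 0.00444), and its other probe changed by 0.38. RPL22 rose by 0.56 (SE 0.071, adjusted p = 0.0138) and RPS23 by 0.40 (SE 0.048, adjusted p = 0.0116). Ribosomal protein genes have many processed pseudogenes, so their probes may read more than 1 locus. Among 51 translation factors 11 rose and 4 fell (median 0.02). EIF3G, a subunit of the initiation factor eIF3, rose by 0.35 (SE 0.047, adjusted p = 0.0156) and EIF2B5, the catalytic subunit of the exchange factor eIF2B, by 0.25 (SE 0.026, adjusted p = 0.00918). DENR and MCTS1, partners in recycling of ribosomes and in reinitiation, both fell. DENR went from 11.32, 11.37 and 11.29 to 10.24, 10.36 and 10.14 (-1.08, SE 0.034, adjusted p = 0.00128), though its other probe changed by -0.10. MCTS1 changed by -0.27 (SE 0.039, adjusted p = 0.0180). Without pair 1 the list of translation factors held 5 rises and 1 fall, without pair 3 it held 0 and 3, and without pair 4 it held 6 and 1.

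Splicing factors and cytosolic chaperones also had more rises than falls among their called members. In the splicing list 10 of 60 rose and 2 fell (median 0.06), a share of 16.7% that is close to the 16.0% of highly expressed genes. LSM7, a protein of the U6 particle, rose by 0.65 (SE 0.083, adjusted p = 0.0135) and the splicing regulator SRSF7 by 0.51 (SE 0.028, adjusted p = 0.00292), while its relative SRSF6 fell by 0.50 (SE 0.023, adjusted p = 0.00235). Of 37 cytosolic chaperones 11 rose and 2 fell (29.7%, median 0.10). DNAJB1, a heat-inducible partner of HSP70, read 8.84, 8.76 and 8.79 in controls and 9.20, 9.22 and 9.25 in MASTL siRNA arrays (0.43, SE 0.032, adjusted p = 0.00440). CCT3, a subunit of the chaperonin TRiC, rose by 0.38 (SE 0.025, adjusted p = 0.00414), and another subunit, CCT6A, fell by 0.24 (SE 0.027, adjusted p = 0.00988). PFDN1, a subunit of prefoldin, which hands actin and tubulin to TRiC, fell by 0.64 (SE 0.024, adjusted p = 0.00176). Leaving out pair 3 ended the calls of LSM7 (0.62) and CCT6A (-0.22) and reduced the chaperone list to 3 rises and 1 fall. The splicing list then also held 3 rises and 1 fall, and 6 and 1 without pair 1. For the translation genes RPS23 (0.37), EIF3G (0.39) and EIF2B5 (0.26) lost their calls without pair 3, RPL22 (0.51) without pair 1 and MCTS1 without pair 1 (-0.25) or pair 4 (-0.25). The cytosolic ribosomal list held 5 rises and 1 fall without pair 1, 5 and 0 without pair 3 and 9 and 0 without pair 4.

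In the lists of mitochondrial proteins rises outnumbered falls, and most members did not pass the test. Of 73 mitochondrial ribosomal proteins 20 rose and 2 fell (27.4%, median 0.10). MRPL11 read 9.44, 9.74 and 9.98 in controls and 9.95, 10.26 and 10.56 in MASTL siRNA arrays, with pair differences of 0.51, 0.52 and 0.58 (change 0.54, SE 0.027, adjusted p = 0.00272). The groups of MRPL11 overlapped even so, because pair 1 lay low and pair 4 high in both. MRPS12 (0.56, SE 0.045, adjusted p = 0.00523) and MRPL50 (0.47, SE 0.035, adjusted p = 0.00440) rose, and the 2 that fell were MRPS33 (-0.32, adjusted p = 0.0195) and MRPS16 (-0.28, adjusted p = 0.00760). Of 39 genes of respiratory complex I and its assembly 9 rose and 0 fell (median 0.06), among them the accessory subunits NDUFA11 (0.31), NDUFA7 (0.25) and NDUFB7 (0.23), with adjusted p-values of 0.0322, 0.0156 and 0.0147. In the list of complexes III to V 10 of 42 rose and 1 fell (median 0.04). SCO1, a copper chaperone of cytochrome c oxidase, rose by 0.36 (SE 0.039, adjusted p = 0.00956) and the oxidase subunit COX5B by 0.36 (SE 0.052, adjusted p = 0.0191). The 1 that fell, HIGD1A, a hypoxia-inducible protein of the inner membrane, averaged 10.98 ± 0.0166 (SD, n = 3) in controls and 9.94 ± 0.11 in MASTL siRNA arrays (-1.05, SE 0.043, adjusted p = 0.00209), and its other probes changed by -0.74 and -0.67.

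In the list of mitochondrial import 6 of 37 rose and 1 fell (4 and 0 without pair 1, 3 and 1 without pair 3). The share that rose, 16.2%, is close to the 16.0% of highly expressed genes. Rises named from this list were the outer membrane channel TOMM40 (0.50, SE 0.069, adjusted p = 0.0170) and the motor component PAM16 (0.45, SE 0.041, adjusted p = 0.00681). The intermembrane space oxidoreductase CHCHD4 (0.33, SE 0.030, adjusted p = 0.00645) was also named from its rises. In the list of the pentose phosphate pathway and the TCA cycle 4 of 28 rose and 2 fell (median 0.09). The falls included DLST, a subunit of the oxoglutarate dehydrogenase complex (-0.50, SE 0.040, adjusted p = 0.00505). The calls of the complex I list depended on single pairs. The list held 0 rises without pair 1, 3 without pair 3 and 5 rises and 1 fall without pair 4. Its median was 0.08, 0.07 and 0.07 in these fits, in which calls over all features also fell. NDUFA7 (0.22), NDUFB7 (0.21), NDUFA11 (0.25), TOMM40 (0.52) and MRPS33 (-0.27) lost their calls without pair 1. MRPS16 (-0.26), NDUFA11 (0.30) and COX5B (0.41) lost theirs without pair 3, and MRPS33 (-0.29) and NDUFA7 (0.24) without pair 4. The mitochondrial ribosomal list held 9 rises and 1 fall without pair 3, and 1 rise without the block. The list of complexes III to V held 6 rises without pair 1 and 3 without pair 3, each with 1 fall.

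**Figure D4:**
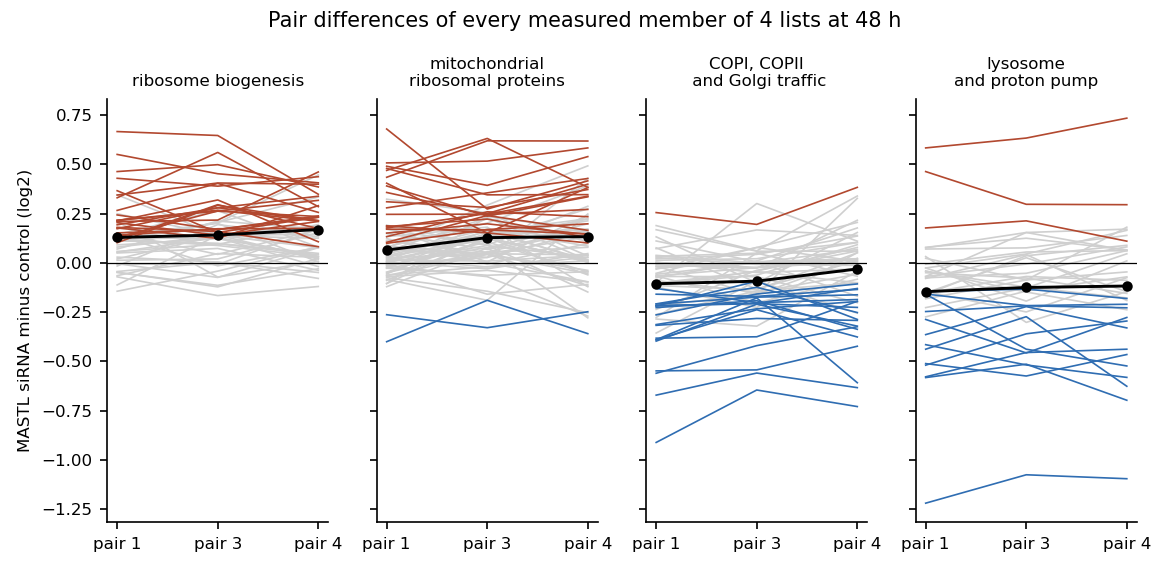
Each thin line is 1 measured member of the list named above the panel, drawn through its MASTL siRNA minus control difference (log2) in pairs 1, 3 and 4, red where called higher, blue where called lower and grey otherwise. Black points are the list medians, which stay above 0 in all 3 pairs for the 2 ribosome lists and below 0 for the 2 membrane lists.

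Among genes of traffic between the endoplasmic reticulum and the Golgi, falls outnumbered rises, while most members did not pass the test. Of 57 measured coat proteins, tethers and SNAREs 19 fell and 1 rose (33.3% and 1.75%), with a median of -0.07 and medians of -0.11, -0.09 and -0.03 in pairs 1, 3 and 4. COPG2, a gamma subunit of the COPI coat, read 8.76, 8.59 and 8.71 in controls and 7.85, 7.95 and 7.98 in MASTL siRNA arrays (-0.76, SE 0.055, adjusted p = 0.00425). All silenced values lay below all controls. KDELR1, the receptor that returns resident proteins to the endoplasmic reticulum, went from 11.61, 11.65 and 11.46 to 11.07, 11.11 and 11.03 (-0.50, SE 0.034, adjusted p = 0.00421). TMED7, a cargo receptor of the p24 family, fell by 0.62 (SE 0.031, adjusted p = 0.00259), and ARCN1, the delta subunit of COPI, fell by 0.43 (SE 0.049, adjusted p = 0.0104). TRAPPC2L, a tether component, was the 1 that rose (0.28, SE 0.042, adjusted p = 0.0204), and its other probe changed by -0.04.

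Chaperones and folding factors of the endoplasmic reticulum split, with 8 of 31 lower and 4 higher (median -0.06). HYOU1, an HSP70-like chaperone, read 8.60, 8.57 and 8.59 in controls and 7.91, 8.07 and 7.99 in MASTL siRNA arrays (-0.60, SE 0.042, adjusted p = 0.00421). DERL1, a channel component of degradation from the endoplasmic reticulum, fell by 0.47 (SE 0.036, adjusted p = 0.00458), and XBP1, a transcription factor of the unfolded protein response, fell by 0.38 (SE 0.047, adjusted p = 0.0132). HSPA5, the main HSP70 of that compartment, rose by 0.22 (SE 0.026, adjusted p = 0.0105) and EDEM1, a mannosidase of misfolded protein disposal, by 0.30 (SE 0.033, adjusted p = 0.00962). The COPI and COPII list held 10 falls without pair 1, 6 without pair 3, 15 without pair 4 and 5 without the block. Without pair 3 ARCN1 (-0.44), TRAPPC2L (0.32), HSPA5 (0.21) and EDEM1 (0.27) lost their calls, as did TRAPPC2L without pair 1 (0.29), and the chaperone list held 7 falls and 0 rises.

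Among lysosomal genes falls also outnumbered rises, and most members did not pass the test. Of 38 measured hydrolases, membrane proteins and subunits of the vacuolar proton pump 13 fell and 3 rose (34.2% and 7.89%, median -0.10). VMA21, an assembly factor of the pump, read 10.95, 10.93 and 10.97 in controls and 9.73, 9.85 and 9.88 in MASTL siRNA arrays (-1.13, SE 0.036, adjusted p = 0.00130). LAMP2, an abundant membrane glycoprotein, went from 11.56, 11.35 and 11.06 to 10.98, 10.84 and 10.36 (-0.60, SE 0.041, adjusted p = 0.00421), and its other 5 probes changed by -0.16 to -0.69. The protease TPP1 fell by 0.52 (SE 0.030, adjusted p = 0.00316). The sulfatase IDS fell by 0.50 (SE 0.038, adjusted p = 0.00445) on the probe used, while its other probes changed by 0.13 and 0.19. CTSC, cathepsin C, rose from 9.70, 9.60 and 9.51 to 10.29, 10.23 and 10.25 (0.65, SE 0.036, adjusted p = 0.00297), and ATP6V1A, the catalytic subunit of the pump, rose by 0.35 (SE 0.042, adjusted p = 0.0117).

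Endosomal genes showed no common direction, with 6 of 48 higher and 8 lower, but held some of the larger falls. PACSIN2, which bends membranes, changed by -1.08 (SE 0.049, adjusted p = 0.00235), AP3M1, the mu subunit of the AP-3 adaptor, by -0.83 (SE 0.035, adjusted p = 0.00213) and SNX3, a sorting nexin of retromer cargo, by -0.57 (SE 0.027, adjusted p = 0.00246). Of 36 genes of mTOR and AMPK signalling 3 rose and 7 fell (median 0.01). PRKAA1, a catalytic subunit of AMPK, fell by 0.52 (SE 0.043, adjusted p = 0.00555), RRAGA, a GTPase that brings mTORC1 to the lysosome, fell by 0.30 (SE 0.025, adjusted p = 0.00567), and RPS6KB1, the S6 kinase downstream of mTORC1, fell by 0.32 (SE 0.046, adjusted p = 0.0192). The lysosome list held 8 falls and 1 rise without pair 3, and 1 of each without the block. The falls of the mTOR and AMPK list numbered 3, 2 and 7 without pairs 1, 3 and 4, with 2, 0 and 0 rises, and those of the endosomal list 6, 4 and 6, with 1, 0 and 2 rises. RPS6KB1 lost its call without pair 1 (-0.34) or pair 3 (-0.35), and ATP6V1A without pair 3 (0.38).

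Targets of ATF4, the transcription factor of amino acid shortage, mostly fell where they were called. Of 25 measured genes 8 fell and 1 rose (32.0% and 4.00%, median -0.06). ASNS, asparagine synthetase, read 10.03, 10.20 and 10.47 in controls and 9.32, 9.51 and 9.68 in MASTL siRNA arrays, with pair differences of -0.71, -0.69 and -0.79 (change -0.73, SE 0.030, adjusted p = 0.00209), while its other probe changed by -0.33. ATF4 itself fell by 0.57 (SE 0.094, adjusted p = 0.0249) on the probe used, while its other probes changed by 0.01 and -0.43. The amino acid transporter SLC38A2 fell by 0.50 (SE 0.040, adjusted p = 0.00507) and the mTOR inhibitor DDIT4 fell by 0.46 (SE 0.063, adjusted p = 0.0163). PSPH, phosphoserine phosphatase of serine synthesis, was the 1 that rose (0.13, SE 0.028, adjusted p = 0.0489).

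Hypoxia and glycolysis genes had 12 of 35 lower and 2 higher (34.3% and 5.71%, median -0.12). SLC2A3, the glucose transporter GLUT3, changed most, by -2.22 (SE 0.044, adjusted p = 0.00118), with pair differences of -2.33, -2.18 and -2.13. ANKRD37, a target of hypoxia-inducible factor, read 8.95, 8.98 and 8.88 in controls and 8.35, 8.41 and 8.23 in MASTL siRNA arrays (-0.61, SE 0.027, adjusted p = 0.00227). ALDOC, an aldolase, changed by -0.72 (SE 0.095, adjusted p = 0.0147) and P4HA2, a collagen prolyl hydroxylase subunit, by -0.57 (SE 0.062, adjusted p = 0.00956). PFKM, a phosphofructokinase, rose by 0.33, 0.34 and 0.33 in the 3 pairs (SE 0.022, adjusted p = 0.00418). The ATF4 list held 3 falls without pair 1, 3 without pair 3 and 8 without pair 4. The hypoxia list held 6, 4 and 7. Without pair 1 ATF4 (-0.50), DDIT4 (-0.39), PSPH (0.13) and ALDOC (-0.70) lost their calls. Without pair 3 ATF4 (-0.51), DDIT4 (-0.43), PSPH (0.16), ALDOC (-0.61) and P4HA2 (-0.51) did, and without pair 4 PSPH (0.11) did.

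Among inflammatory genes, the controls of CXCL8, IL1A, IL6 and NFKBIA spread further between pairs than the change within them. Of 27 measured cytokines and NF-kB feedback genes 8 fell and 0 rose (29.6%, median -0.03), and without the block limma called 0 of them. CXCL8, interleukin 8, read 13.05, 12.84 and 11.32 in controls and 12.33, 12.07 and 10.40 in MASTL siRNA arrays of pairs 1, 3 and 4. Both arrays of pair 4 were lower than any of the others, so the groups overlap, while each pair fell by a like amount (-0.72, -0.77 and -0.92). The paired change was -0.80 (SE 0.044, adjusted p = 0.00297), and without the block its SE was 0.69 and its adjusted p 0.733. The cytokines IL1A (-0.49, SE 0.078, adjusted p = 0.0224) and IL6 (-0.29, SE 0.031, adjusted p = 0.00945) and the inhibitor NFKBIA (-0.29, SE 0.046, adjusted p = 0.0223) fell. Other genes with a low pair 4 were the cystatin CST1, which read 11.22, 10.63 and 9.01 in controls and changed by -0.95 (SE 0.051, adjusted p = 0.00288), and COXFA4L3, a paralog of a cytochrome c oxidase subunit, which changed by -1.44 (SE 0.10, adjusted p = 0.00421) on the probe used and by -0.47 and -0.14 on its other probes. IL1B (pair differences -0.30, -0.02 and -0.17), CXCL1 (-0.24, -0.22 and -0.58) and PTGS2 (0.18, 0.22 and -0.02) also spread between pairs and did not pass the test, with adjusted p-values of 0.172, 0.0567 and 0.242.

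Interferon-responsive genes divided. In the list of 31 measured genes 10 fell and 5 rose (32.3% and 16.1%, median -0.12). ISG15, a ubiquitin-like modifier, read 9.28, 9.96 and 9.78 in controls and 10.22, 10.72 and 10.23 in MASTL siRNA arrays (0.72, SE 0.094, adjusted p = 0.0143). The RNA-binding effectors IFIT1 (0.60, SE 0.071, adjusted p = 0.0115) and IFIT3 (0.30, SE 0.023, adjusted p = 0.00440) rose. HLA-B, a class I antigen chain whose probe may read other class I genes, fell by 0.71 (SE 0.040, adjusted p = 0.00312), and IFI35 fell by 0.37 (SE 0.025, adjusted p = 0.00418). In the 24 h arrays ISG15, IFIT1 and IFIT3 changed by 0.06, 0.11 and 0.03. Without pair 3 the NF-kB list held 1 fall and the interferon list 2 falls and 1 rise, and IL1A (-0.49), NFKBIA (-0.30), IL6 (-0.30), ISG15 (0.70) and IFIT1 (0.52) lost their calls. IFIT1 also lost it without pair 1 (0.58), where the interferon list held 4 falls and 3 rises and the NF-kB list 5 falls. Neither CXCL8, CST1 nor COXFA4L3 lost its call when any 1 pair was left out.

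Receptors, inhibitors and targets of TGF-beta family signalling moved in both directions, and most members did not pass the test. Of 22 measured genes of this list 4 rose and 5 fell (18.2% and 22.7%, median -0.06). The shares were 8.17% and 8.04% over all named genes and 16.0% and 15.0% in the highest tertile by level. The falls included 4 receptors. ACVR1, a type I receptor of bone morphogenetic proteins, read 9.70, 9.68 and 9.33 in controls and 8.93, 8.72 and 8.37 in MASTL siRNA arrays (-0.90, SE 0.047, adjusted p = 0.00272). TGFBR3, the co-receptor betaglycan, changed by -0.89 (SE 0.061, adjusted p = 0.00421), the type II receptor BMPR2 by -0.56 (SE 0.028, adjusted p = 0.00259) and the type II receptor TGFBR2 by -0.54 (SE 0.073, adjusted p = 0.0162). FST, follistatin, which binds activin, read 8.60, 8.90 and 9.38 in controls and 9.52, 9.75 and 10.29 in MASTL siRNA arrays, with pair differences of 0.92, 0.85 and 0.91 (change 0.89, SE 0.026, adjusted p = 0.00126), while its other probe changed by 0.23. PMEPA1, a feedback inhibitor of SMAD signalling, rose by 0.58 (SE 0.043, adjusted p = 0.00440), and BAMBI, a pseudoreceptor without kinase activity, by 0.44 (SE 0.033, adjusted p = 0.00440). TGFBR2 lost its call without pair 3 (-0.57), where the list held 3 rises and 3 falls. Without the block the list held 1 called gene, TGFBR3.

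Actin and attachment genes moved in both directions. Of 23 measured targets of the actin-sensitive factors MRTF and SRF 9 rose and 2 fell (39.1% and 8.70%, median 0.16), and 4 and 2 were called without the block. ACTG2, a smooth muscle actin, read 11.41, 11.52 and 11.65 in controls and 12.38, 12.24 and 12.41 in MASTL siRNA arrays (0.82, SE 0.053, adjusted p = 0.00406), with the caution that actin genes are near-identical and its probe may read others. The matricellular proteins CCN1 (0.57, SE 0.037, adjusted p = 0.00393) and CCN2 (0.55, SE 0.031, adjusted p = 0.00316) and the calponin CNN3 (0.46, SE 0.024, adjusted p = 0.00272) rose. TPM4, a tropomyosin, changed by -1.04 (SE 0.064, adjusted p = 0.00367) and VCL, vinculin, by -1.01 (SE 0.072, adjusted p = 0.00421). CAPZA2, a subunit of the actin capping protein, read 10.30, 10.22 and 9.91 in controls and 9.27, 9.25 and 8.93 in MASTL siRNA arrays, with pair differences of -1.03, -0.97 and -0.98 (SE 0.026, adjusted p = 0.00118). The non-muscle myosin heavy chain MYH10 fell by 0.56 (SE 0.043, adjusted p = 0.00460).

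Among 27 integrins and focal adhesion genes 2 rose and 5 fell (median 0.03). ITGAV and ITGA5, the alpha chains of vitronectin and fibronectin receptors, fell by 0.54 (SE 0.038, adjusted p = 0.00421) and 0.33 (SE 0.025, adjusted p = 0.00478), each with overlapping groups. The ITGA5 controls read 11.30, 10.82 and 10.32 and the MASTL siRNA arrays 10.98, 10.52 and 9.96, so that the pairs differ by more than the change. Matrix genes and matrix proteases divided evenly, with 6 of 29 higher and 6 lower. The laminin chains LAMA5 (-0.57, SE 0.080, adjusted p = 0.0166) and LAMC1 (-0.49, SE 0.042, adjusted p = 0.00587) and the metalloproteinase inhibitor TIMP1 (-0.36, SE 0.040, adjusted p = 0.0102) fell, and the collagen COL12A1 rose by 0.39 (SE 0.052, adjusted p = 0.0159), while its other probe changed by 0.02. PAPPA, a secreted metalloprotease that cleaves IGF-binding proteins, rose by 1.42, 1.08 and 0.80 in the 3 pairs, a range of 0.62 (change 1.10, SE 0.12, adjusted p = 0.00908). Without pair 3 LAMA5 (-0.61), TIMP1 (-0.32), COL12A1 (0.39) and PAPPA (1.11) lost their calls, and the MRTF-SRF list held 5 rises and 2 falls. It held 6 rises and 3 falls without pair 4. The integrin list held 0 rises and 4 falls without pair 3. The matrix list held 3 and 4, 1 and 3, and 3 and 5 without pairs 1, 3 and 4.

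Cell cycle genes changed little in number. Of 35 measured genes of G2 and mitosis 6 fell and 0 rose (17.1%, median -0.07), close to the 15.0% of highly expressed genes. CCNA2, cyclin A2, read 10.24, 10.51 and 10.85 in controls and 9.66, 10.10 and 10.49 in MASTL siRNA arrays (-0.45, SE 0.047, adjusted p = 0.00867). The phosphatase CDC25B fell by 0.39 (SE 0.061, adjusted p = 0.0218), and CDK1, the mitotic kinase, fell by 0.27 (SE 0.042, adjusted p = 0.0214). Of 47 genes of G1, S phase and replication 6 rose and 3 fell, against 0 and 2 without pair 3 and 2 and 3 without pair 4. CCND1, cyclin D1, rose by 0.31 (SE 0.028, adjusted p = 0.00645) and POLD2, a subunit of DNA polymerase delta, by 0.22 (SE 0.024, adjusted p = 0.00984). CDK6, a partner of cyclin D1, changed by -1.27 (SE 0.091, adjusted p = 0.00425), TYMS by -0.32 and RRM1, a subunit of ribonucleotide reductase, by -0.23 (SE 0.025, adjusted p = 0.00952).

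Of 16 measured histone genes 4 rose and 1 fell. H2BC12 read 11.11, 11.26 and 11.29 in controls and 11.99, 12.29 and 12.02 in MASTL siRNA arrays (0.88, SE 0.060, adjusted p = 0.00421), and H1-2 rose by 0.60 (SE 0.072, adjusted p = 0.0118). Histone genes have close paralogs that 1 probe may read together. In the list of 55 nuclear pore and transport genes 6 rose and 6 fell. The importins IPO5 (-0.83, SE 0.043, adjusted p = 0.00272) and KPNB1 (-0.36, SE 0.024, adjusted p = 0.00420) and the pore scaffold protein NUP160 (-0.55, SE 0.030, adjusted p = 0.00288) fell. The G2 and mitosis list held 4, 2 and 3 falls without pairs 1, 3 and 4, and 0 without the block. Without pair 3 the histone list held 2 rises and 0 falls and the nuclear pore list 2 and 4, and without pair 1 the latter held 4 and 4. Without pair 3 CCNA2 (-0.47), CDC25B (-0.40), RRM1 (-0.23), CCND1 (0.30), POLD2 (0.22) and H1-2 (0.52) lost their calls, and CDK1 lost its call without pair 1 (-0.26) or pair 4 (-0.23).

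Genes outside the lists also changed, some of them by nearly the same amount in every pair. ESAM, an adhesion molecule first known from endothelium, read 10.92, 10.83 and 10.50 in controls and 9.98, 9.87 and 9.54 in MASTL siRNA arrays, with pair differences of -0.94, -0.96 and -0.96 (change -0.96, SE 0.023, adjusted p = 0.00118). BNIP2 differed by -0.81, -0.82 and -0.81 in the pairs (SE 0.022, adjusted p = 0.00118), and TMEM154, a membrane protein, by -0.82, -0.83 and -0.82 (SE 0.022, adjusted p = 0.00118). TMPO, a protein of the inner nuclear membrane, fell by 0.84 (SE 0.024, adjusted p = 0.00126; other probe -0.15) and SRGN, the proteoglycan serglycin, fell by 0.90 (SE 0.031, adjusted p = 0.00145). Among rises, the phosphatase CTDSPL differed by 0.68, 0.73 and 0.70 (SE 0.024, adjusted p = 0.00145), and MARCHF4, a ubiquitin ligase, by 0.69, 0.65 and 0.65 (SE 0.024, adjusted p = 0.00163). CPA4, a carboxypeptidase, read 8.62, 8.66 and 9.21 in controls and 9.64, 9.86 and 10.12 in MASTL siRNA arrays, with wider pair differences of 1.02, 1.20 and 0.91 (change 1.04, SE 0.058, adjusted p = 0.00297). PRMT1, the main arginine methyltransferase, whose substrates include fibrillarin, differed by 0.64, 0.52 and 0.71 (change 0.62, SE 0.041, adjusted p = 0.00406). All 9 kept their calls without any 1 pair, and 4 of them (ESAM, TMEM154, CTDSPL and CPA4) were not called without the block.

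Of the 132 called genes named in the text, cell type markers aside, 90 were not called without the block. Without pairs 1, 3 and 4 the calls lost numbered 19, 42 and 8, and none changed sign in these fits. The 42 still called without the block included MASTL, DENR, HIGD1A, COPG2, HYOU1, VMA21, CTSC, SLC2A3, ACTG2, CDK6 and H2BC12. Another probe of the same gene was available for 817 called genes. Of 1134 such probes 988, or 87.1%, had the same sign of change as the probe used, against 68.8% of 5175 over all genes with more than 1 probe. Among the called genes named in the text 48 had 70 other probes, of which 34, in 27 genes, changed by less than 0.5 times the change of the probe used. They include probes of VCL (-0.01), CTSC (0.06), PMEPA1 (0.07 and 0.02), MRPS12 (0.14 and 0.06), MRPL11 (0.13), MRPS33 (-0.03), IFIT1 (0.02), IFIT3 (0.10 and 0.08), PACSIN2 (-0.31), PRKAA1 (-0.22), TGFBR2 (-0.10), CTPS2 (0.20), POLR1E (0.18), P4HA2 (-0.21), PPP2R5D (0.04 and 0.10), POLD2 (0.08) and CDK1 (-0.11). The VCL probe and the PMEPA1 probe at 0.02 were above the noise limit on only 2 arrays, and those of MRPS12 at 0.06 and IFIT1 on 7. Further probes of VCL (-0.51), CTSC (0.53 and 0.53), PMEPA1 (0.45) and MRPS12 (0.45) were above it on all 11 arrays.

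The 24 h arrays share no array with the 48 h comparison. Of the 2710 features called at 48 h 2489, or 91.8%, had the same sign at 24 h, against 63.0% of all features. The ribosome biogenesis list had a median of 0.19 at 24 h and 0.14 at 48 h, the mitochondrial ribosomal list 0.10 at both, the lysosome list -0.09 and -0.10 and the COPI and COPII list -0.04 and -0.07. Among the named genes, MRPL50 changed by 0.56 at 24 h and 0.47 at 48 h, whereas ISG15 changed by 0.06 and 0.72. COXFA4L3 changed by -0.67 at 24 h and -1.44 at 48 h, and KPNB1 by 0.08 and -0.36. These differences between times were not tested.

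**Figure D5:**
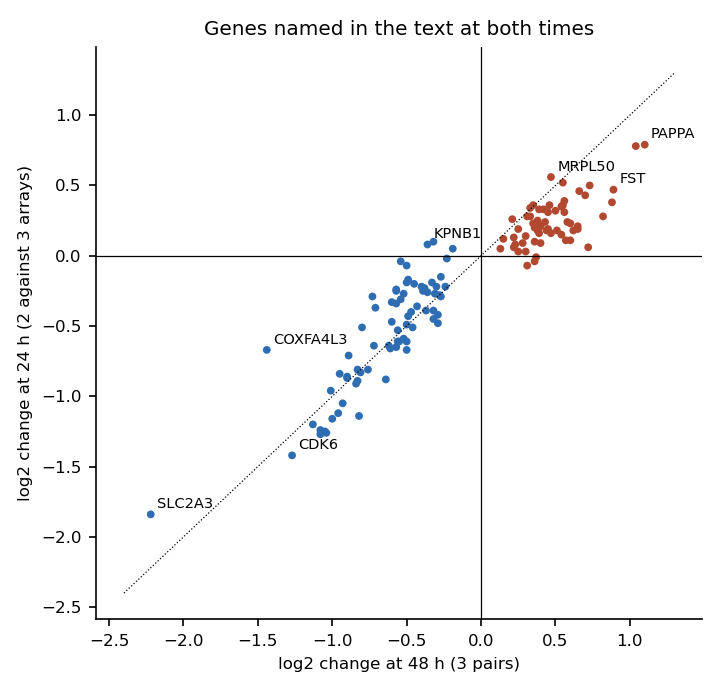
Each point is 1 of the 132 called genes named in the text, cell type markers aside. Its paired log2 change at 48 h is on the x axis and its change at 24 h (2 MASTL siRNA against 3 control arrays) on the y axis. Red marks genes called higher and blue those called lower at 48 h, and the dotted line marks equal change. In all, 126 of the 132 have the same sign at both times.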

How the data were processed

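The log2 values deposited by the authors were used, 47321 probes on each of 11 arrays. The tool lumi is listed per the submitters' processing notes, which give it neither a version nor a step. The sorted values of the arrays differ by at most 0.000698, every array has a median of 7.4039, and all values lie between 7.2365 and 14.5122. The sources used here do not give the transform (log2 alone or variance stabilization), and near the floor a fold is too small. A further deposited table of 11 signal and 11 detection p-value columns was not used, because its 22 column names match no sample.

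The noise limit of 7.4088 is the 95th percentile of the values below their most common value, 7.3565, mirrored about it. Probes above it on at least 2 arrays, 27342 in all, were kept. Symbols came from GEO's platform annotation (30113 probes with 1 symbol, 8 with several, 17200 with none), updated through the Entrez number for 30074. The 6 arrays at 48 h were fitted in limma 3.58.1 (lmFit, then eBayes; R 4.3.3), with the replicate number as a fixed block (2 residual degrees of freedom, 2.84 added by moderation) and Benjamini-Hochberg adjustment over all 22167 features. All p-values are two-sided. The number of arrays limits the precision.

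The labels do not say what a replicate number marks. The pairing rests on the correlations of array deviations across features, 0.693, 0.549 and 0.772 for same-numbered arrays and -0.713 to 0.119 for the others. Deviations from a group mean cancel over the arrays of the group, so high values for same-numbered arrays push the others down. The low values of the others are therefore not separate evidence for the pairing. Genes were named by a rule: MASTL, the largest changes, the smallest adjusted p-values, up to 4 called members per direction of each of 58 lists (2171 genes, 1980 measured), and the genes that spread most between pairs. Cell type markers aside, the text names 137 genes. They are a selection from those the rule gives, made after values were seen, plus ENSA and ARPP19, named for their place in the pathway. Counts of called genes named in the text leave out CD68, CD14 and PECAM1. The members, lists and rule were chosen with earlier results of these data known. The design was tested on simulated data, where 101 of 101 changes of 0.5 and 99 of 99 changes of 1.0 were called. The simulated noise was independent between features and had the spread of the fit itself. Changes near the median called change of 0.24 were not simulated, so the simulation does not show how changes of that size are called. Both sizes were simulated in the same data, where 20 unchanged features in all were falsely called. Alternatives were the fit without the block, a random block, all 11 arrays, other filters, cyclic loess, limma-trend, the mean of a gene's probes, and leaving out each pair. Tables and plots were made in Python 3.11.15 with matplotlib 3.10.9.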

Additional observations from a re-analysis of the deposited data

Results flagged for a closer look

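For 2 named genes all 3 pairs at 48 h and both pairs at 24 h moved in opposite directions. NDUFA11, an accessory subunit of complex I, rose at 48 h by 0.31 on the log2 scale and changed by -0.07 at 24 h. PPP2R2A, the B55 alpha subunit of PP2A, changed by -0.19 at 48 h and 0.05 at 24 h. The difference between the times was not tested. Over all called named genes 77 of 2275, or 3.38%, had this pattern.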

How the results depend on the processing

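The 2 counts of features, 1398 higher and 1312 lower, depend most on how the arrays are paired. Without the replicate block they were 161 and 177, and with the replicate number as a random block (duplicateCorrelation, correlation 0.422) 815 and 696, of which 744 and 649 were among the paired calls. Leaving out 1 pair gave 336 to 936 features higher and 426 to 969 lower, with 1 residual degree of freedom fewer. The remaining alternatives stayed within 1.5 times: 1397 and 1301 with all 11 arrays and the block within each time, 1297 and 1223 with no filter on dim probes, 1410 and 1316 with probes above the noise limit on all 6 arrays, 1293 and 1399 with cyclic loess, 1613 and 1485 with limma-trend and 1437 and 1323 with the mean of a gene's probes. Limma-trend shared 1143 and 1145 of the calls. Of the 132 called genes named in the text, 48 were lost with the random block and 1 to 3 with each of the other alternatives that keep all pairs, and none reversed. The cause of these shifts was not tested. Near the noise limit, signal over background limits what can be called.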

Other observations

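Some groups moved little or without a common direction at 48 h. Of 17 measured p53 targets 0 rose and 1 fell, and of 31 DNA repair genes 3 rose and 3 fell, with median log2 changes of -0.02 and 0.00. Proteasome genes had 1 of 39 higher and 4 lower, and 0 of either without pair 1 or without pair 3. The RAB GTPases had 10 of 44 higher and 6 lower, against 5 and 5, 3 and 4, and 7 and 8 without pairs 1, 3 and 4. DNA repair genes then had 2 and 1, 0 and 3, and 3 and 3. In the list of cholesterol synthesis the median was -0.26 at 24 h and -0.03 at 48 h, a difference that was not tested.

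Some markers of other cell types were above the noise limit. CD68, a lysosomal glycoprotein used to mark macrophages, changed by -0.84 (SE 0.091, limma adjusted p = 0.00948), CD14 by -0.31 (adjusted p = 0.00876) and PECAM1 by -0.24 (adjusted p = 0.00891), the 3 calls among 8 measured leukocyte and endothelial genes. Without pair 3 that list held 1 call, and without the block 0. In a separate set of markers without CD68, log2 values were summed over 5 measured genes per cell type. The sum for leukocyte markers was 38.07 to 38.49 in controls and 37.8 to 38.17 in MASTL siRNA arrays. That of the endothelial markers was 37.31 to 37.4 and 37.09 to 37.3. All but CD14 and PECAM1 in these sums lay near or below the noise limit, so the sums are not a measure of cell content. PTPRC, CD3E, VWF and CDH5 stayed below the noise limit on all 6 arrays. These genes were named after their values were seen, and their part in the falls of other lists was not tested.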
